A study of Mus musculus with 22 samples.

Results

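The 9 brain regional patterning genes Otx1, Otx2, Six3, Lhx2, Gbx2, En1, En2, Pax2 and Egr2 were followed through 22 RNA-seq libraries in 10 groups of mouse embryonic stem (mES) cells and of cultures grown from them. They were picked by symbol, and each had 1 row among the 55141 genes of the gastruloid tables and among the 55055 genes of the mES and endoderm tables. All 9 encode transcription factors.

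Along the early neural plate, Otx2 marks the future forebrain and midbrain and Gbx2 the anterior hindbrain, and mutual repression between them places the midbrain-hindbrain boundary. Six3 and Lhx2 act in the forebrain and eye field, Otx1 in forebrain and midbrain, En1, En2 and Pax2 around the boundary, and Egr2 in rhombomeres 3 and 5 of the hindbrain, whereas Hox genes give positional identity to the hindbrain and trunk behind it. None of these genes is restricted to the brain: Otx2 is also a gene of the epiblast, anterior visceral endoderm and anterior mesendoderm, Gbx2 of naive pluripotent cells and the posterior epiblast, and Pax2 of intermediate mesoderm and kidney.

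The study set wild-type (wt) cells beside cells labelled Hox-/-, described in the series title as devoid of Hox function. Gastruloids are aggregates of mES cells that form parts of an embryonic body axis; those named after Activin A, a TGF-beta family ligand that signals through the receptors used by Nodal, were grown from wild-type and from Hox-/- cells, and those named after Chiron, the GSK-3 inhibitor CHIR99021 that activates Wnt signalling, are represented by wild-type libraries. Each gastruloid group holds 2 libraries at 96 h and 2 at 120 h, and the mES groups hold 2 libraries per genotype. For all 22 libraries the mES cells were kept with 100 ng/ml LIF, 3 µM CHIR99021 and 1 µM of a MEK inhibitor. The mES groups were otherwise untreated. The endoderm groups hold 3 libraries per genotype, from adherent cultures given 100 ng/ml Activin A and 3 µM CHIR99021 at 24 h and 72 h and collected at 120 h. Gastruloid doses are not in the labels. The labels give no sequencing batch. They name the cells of the endoderm and gastruloid groups as mixed, do not say how many Hox-/- clones were used, so that genotype and cell line cannot be told apart, and do not say that replicates were separate cultures. The p-values therefore measure only the spread between these samples, which may be technical.

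Total counts ran from 9.11 to 28.8 M per library, and replicates of a group differed beyond counting noise (chi-square per degree of freedom 1.37 to 10.3). Depth went with time: the 6 gastruloid libraries of 96 h held 15 to 28.8 M counts and the 6 of 120 h held 9.11 to 11.9 M. The summed level of the 39 Hox genes in CPM (counts scaled to a library total of 1 M), which checks the genotype labels, was 30.4 to 35.7 in wild-type against 0.448 to 1.34 in Hox-/- mES cells. It was 828 to 877 against 22.5 to 28.6 in endoderm cultures, 625 to 660 against 102 to 104 in Activin A gastruloids at 96 h, and 1167 to 1190 against 63.8 to 69.5 at 120 h. Some Hox genes were still counted in Hox-/-. Of the 39, 37 were at the floor in Hox-/- mES cells, where 22 were in wild type, and 34 against 0 in endoderm cultures. In Activin A gastruloids 28 were at the floor in Hox-/- against 9 in wild type at 96 h, and 27 against 4 at 120 h. The sum in Hox-/- Activin A gastruloids lay above that of wild-type mES cells. A set of 5 mES markers summed to 3794 to 4090 CPM in mES cells and to 961 CPM or less elsewhere. A set of 5 endoderm markers was above the floor in all endoderm cultures, at 178 to 184 CPM in wild type and 94.9 to 99.8 CPM in Hox-/-. The same set summed to 415 to 515 CPM in wild-type and 143 to 153 CPM in Hox-/- Activin A gastruloids, and to 149 to 184 CPM at 96 h and 69.7 to 73.2 CPM at 120 h under Chiron, so it does not set the endoderm cultures apart from the gastruloids. Here a group is at the floor when each of its libraries holds 3 counts or fewer, which corresponds to 0.104 to 0.329 CPM depending on depth; floors cover counting error only.

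The members the results turn on are Otx2 (chr14:48657677-48673819, minus strand, mm10) and Gbx2 (chr1:89927956-89931179, minus strand), which differed between genotypes in all 4 comparisons. Their promoter sequences are shown because both genes changed with genotype, and were searched for motifs of homeodomain, Hox-Pbx, TCF/LEF and SMAD factors. The 250 bases before an annotated start site were taken from RefSeq on GRCm38.p6, the mm10 assembly, and are written 5′ to 3′ on the gene's own strand, with motif matches in capitals. RefSeq gives Otx2 4 start sites, of which numbers 1 and 3 held matches, and Gbx2 1.
Otx2 start site 1, chr14:48667645-48667894: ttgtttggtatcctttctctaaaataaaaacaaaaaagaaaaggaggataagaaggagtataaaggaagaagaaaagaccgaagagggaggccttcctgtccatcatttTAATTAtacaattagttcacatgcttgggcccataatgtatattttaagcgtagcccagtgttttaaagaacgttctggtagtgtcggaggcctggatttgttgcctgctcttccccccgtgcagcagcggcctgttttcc
Otx2 start site 3, chr14:48665110-48665359: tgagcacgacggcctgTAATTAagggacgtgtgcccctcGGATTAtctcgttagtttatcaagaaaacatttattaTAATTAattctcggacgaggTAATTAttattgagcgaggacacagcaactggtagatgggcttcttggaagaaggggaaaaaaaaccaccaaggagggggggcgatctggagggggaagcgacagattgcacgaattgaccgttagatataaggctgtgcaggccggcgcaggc
Gbx2, chr1:89931177-89931426: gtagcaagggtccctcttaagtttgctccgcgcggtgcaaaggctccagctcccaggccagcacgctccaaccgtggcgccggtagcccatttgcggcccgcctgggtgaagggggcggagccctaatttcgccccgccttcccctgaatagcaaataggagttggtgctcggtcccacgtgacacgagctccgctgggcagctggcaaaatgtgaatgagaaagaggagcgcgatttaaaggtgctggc

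The search covered 5 motifs on both strands: TAATCC for bicoid-type homeodomains such as OTX2, TAATTA for other homeodomains, TGATNNAT for Hox-Pbx pairs, CTTTGA for TCF/LEF and CAGACA for SMAD proteins. TAATTA reads the same on both strands and was counted once, and it shares its first 4 bases with TAATCC, although none of the matches here overlapped. Otx2 window 3 held TAATTA at -234, -174 and -154 and TAATCC, on the opposite strand as GGATTA, at -211, counted from the start site to the first base of the match. Otx2 window 1 held TAATTA at -141, and the Gbx2 window held no match. TAATTA was present in 4.84% and TAATCC in 6.25% of the 32851 windows of the same length, TGATNNAT in 7.68%, CTTTGA in 13.8% and CAGACA in 17.1%. Among the other members in the RefSeq table, Lhx2 had CAGACA at -169 and -153 in window 1 and Egr2 had TGATNNAT at -46 in window 5. A match of letters describes the sequence and is not a measured binding site.

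Otx2 and Gbx2 were the abundant members. On the per-length scale of FPKM, the highest group mean was 111 for Gbx2 (Hox-/- Activin A gastruloids at 96 h) and 52.1 for Otx2 (wild-type Activin A gastruloids at 96 h), while the highest group mean of any other member was 1.96, for En2 in wild-type mES cells. Otx2, Gbx2, En2 and Lhx2 were above the floor in all 10 groups. Six3 was at the floor in 8 groups and without a count in 11 libraries. En1 never reached a group mean of 1 CPM, and Egr2 and Six3 reached it in 1 group, Otx1 in 2. The precision of these low members is limited by counting: their highest count in any library was 35 for Otx1 and Egr2, 32 for Six3 and 19 for En1.

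**Figure D1:**
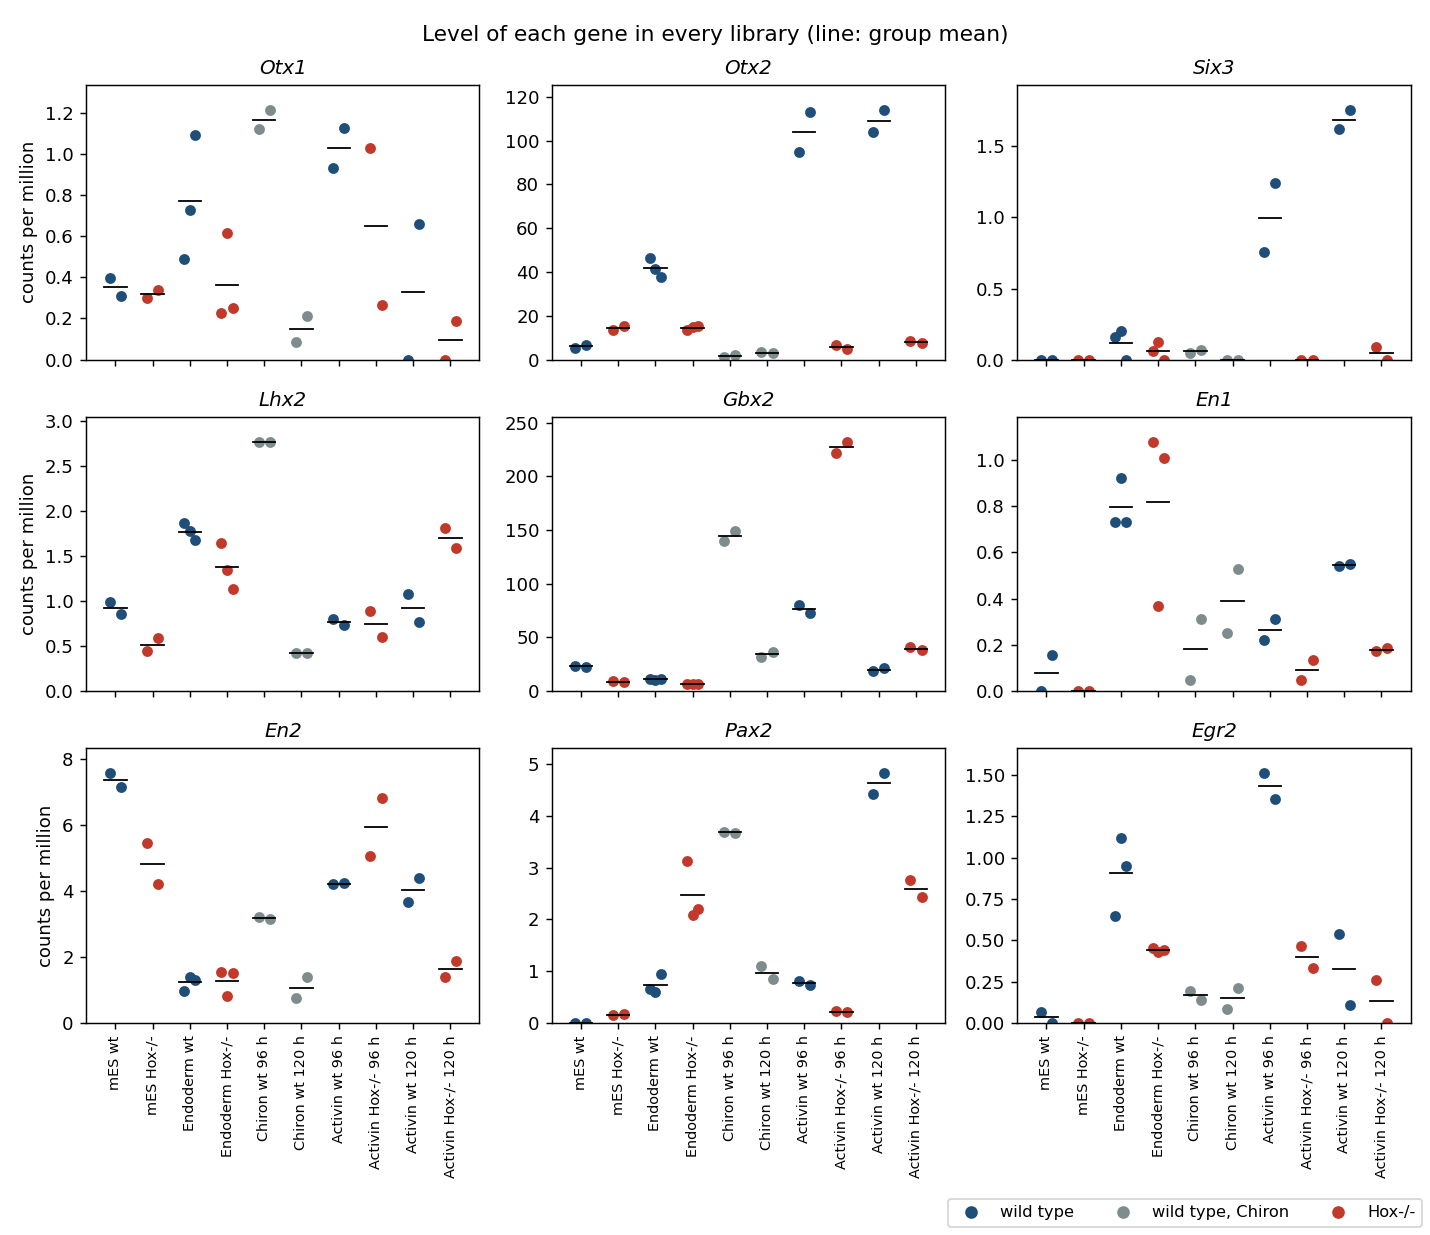
Level of each of the 9 genes in CPM (vertical axis, from 0, scaled separately per gene) in the 22 libraries of the 10 groups (horizontal axis); points are libraries, horizontal lines are group means, and colour marks wild type, wild-type Chiron gastruloids and Hox-/-. The 4 wild-type Activin A libraries stand at 94.5 to 114 CPM of Otx2, above all others, and the Hox-/- Activin A libraries of 96 h at 222 and 232 CPM of Gbx2.

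The genotype comparisons ask whether anterior brain genes appear, or appear more, in Hox-/- cells. After the filter on low counts, 8 members were tested in Activin A gastruloids at each time, 7 in endoderm cultures and 4 in mES cells. Adjusted p under 0.05 (edgeR quasi-likelihood test, Benjamini-Hochberg over all genes tested) called 6 of 8 at 96 h, where 38.9% of all genes tested were called, and 6 of 8 at 120 h, where 50.4% were. In endoderm cultures 4 of 7 were called against 46.2% of all genes, and in mES cells 3 of 4 against 23.2%. These counts rest on 4 to 8 genes each, and the values of each member follow. Because these are bulk libraries, fewer cells of a type and less RNA per cell cannot be told apart in any of them.

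Otx2, the forebrain and midbrain determinant, was lower in Hox-/- in every differentiated culture with both genotypes and higher in mES cells. In Activin A gastruloids at 96 h it measured 94.5 and 113 CPM in wild type and 6.73 and 4.75 CPM in Hox-/-. The groups lay far apart, 18.1-fold by their means, with a log2 fold change of -4.08 ± 0.09 (SE, n = 2 per group) and an edgeR adjusted p of 3.4e-37. At 120 h the wild-type libraries held 104 and 114 CPM and the Hox-/- libraries 8.62 and 7.58 CPM, a log2 fold change of -3.63 ± 0.11 (adjusted p = 1.74e-32, edgeR). Endoderm cultures held 46.2, 41.3 and 37.9 CPM in wild type and 13.4, 15.1 and 15.4 CPM in Hox-/-. These did not overlap either, at -1.51 ± 0.09 on the log2 scale (adjusted p = 7.89e-09, edgeR, n = 3 per group). In mES cells the order was the opposite: wild-type libraries held 5.51 and 6.68 CPM and Hox-/- libraries 13.6 and 15.5 CPM, 2.38-fold more, at 1.25 ± 0.14 (adjusted p = 1.68e-08, edgeR). In 1 fit over mES and endoderm libraries, in which 24.1% of all genes and 2 of 8 members were called for a changed genotype effect, the change of the genotype effect was itself -2.74 ± 0.17 on the log2 scale (edgeR adjusted p = 8.44e-10). The antisense gene Otx2os1, which shares 5112 bases with Otx2, stayed at 0.356 CPM or less in every library. A further annotation, Gm49154, shares 1726 bases with Otx2 on the same strand, so strand cannot part their reads there.

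Gbx2, the anterior hindbrain gene, was higher in Hox-/- Activin A gastruloids and lower in Hox-/- mES cells and endoderm cultures, so that in gastruloids and in mES cells it moved against Otx2 and in endoderm cultures in the same direction. At 96 h the wild-type Activin A libraries held 80.4 and 72.8 CPM and the Hox-/- libraries 222 and 232 CPM. The Hox-/- mean was 2.97-fold higher, with a log2 fold change of 1.62 ± 0.05 (adjusted p = 1.1e-33, edgeR, n = 2 per group). At 120 h the values were 19.0 and 21.3 CPM against 40.7 and 38.7 CPM, and the log2 fold change was 1.09 ± 0.09 (adjusted p = 2.04e-14, edgeR). A change of the genotype effect between the times was called for 2 of 8 members and 38.9% of all genes. For Gbx2 the effect was smaller at 120 h, by 0.53 ± 0.11 on the log2 scale in a test of the difference itself (adjusted p = 6.26e-05). For Otx2 the same test gave 0.45 ± 0.19 (edgeR adjusted p = 0.0507), at the edge of the threshold and not called. With 1 library left out the Otx2 value ran from 0.26 to 0.77 over 8 such fits. The other settings gave 0.39 to 0.53, with adjusted p up to 0.244 by edgeR, DESeq2 or limma.

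In endoderm cultures Gbx2 measured 11.4, 10.7 and 11.7 CPM in wild type and 7.04, 7.07 and 6.74 CPM in Hox-/-, a tight pair of groups at -0.69 ± 0.11 on the log2 scale (adjusted p = 1.14e-04, edgeR). In mES cells it measured 23.5 and 22.6 CPM against 9.64 and 8.15 CPM, 2.59-fold lower in Hox-/- (-1.37 ± 0.12, adjusted p = 2.2e-11, edgeR). The change of the genotype effect between mES and endoderm was 0.71 ± 0.16 (adjusted p = 0.00267, edgeR). In mES cells, kept without differentiation, the genotypes thus differed in both genes. Any link of these differences to those of the other cultures was not tested. Gbx2 overlaps D130058E05Rik, a transcript of the opposite strand, over 946 bases. The library kit is stranded, but whether the counting used strand is not given in the sources used here, so the source of reads in the shared bases is uncertain. D130058E05Rik held 12.9 to 17.7 CPM in all 12 gastruloid libraries, while Gbx2 ran from 19.0 to 232 CPM in them; its genotype difference was 0.40 ± 0.09 at 96 h (adjusted p = 3.26e-04, edgeR) and 0.19 ± 0.13 at 120 h (adjusted p = 0.229).

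**Figure D2:**
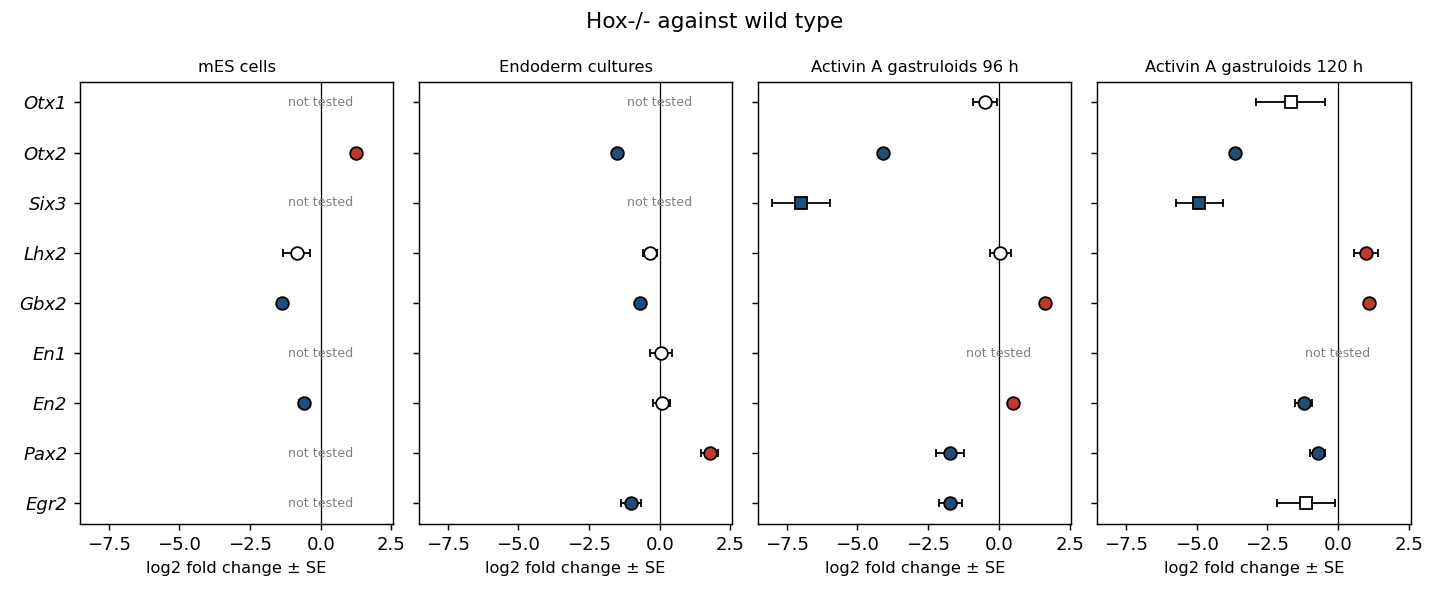
Log2 fold change of Hox-/- over wild type (horizontal axis) for each gene in the 4 genotype comparisons, with bars of 1 SE, which are shorter than the symbol where not visible. Red is called higher, blue called lower, white not called; a square marks a gene with a group at the floor, whose fitted value depends on the prior count. Otx2 lies at -4.08 and -3.63 in gastruloids, -1.51 in endoderm cultures and 1.25 in mES cells.

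The ratio of Otx2 to Gbx2 within a library, taken from FPKM and therefore per transcript length, put the 2 genes on 1 scale. In wild-type Activin A gastruloids it was 1.29 and 1.67 at 96 h and 6.26 and 5.97 at 120 h, so Otx2 exceeded Gbx2 in all 4 libraries. In Hox-/- Activin A gastruloids it was 0.0309 and 0.0200 at 96 h and 0.239 and 0.191 at 120 h, which is Gbx2 above Otx2 by 32.3- to 49.9-fold and 4.18- to 5.22-fold. Chiron gastruloids of wild type stood on the same side, at 0.00796 and 0.0153 at 96 h and 0.104 and 0.0930 at 120 h. The mES groups fell on opposite sides of 1, with 0.218 and 0.328 in wild type and 1.59 and 2.13 in Hox-/-. Endoderm cultures were above 1 in both genotypes, at 3.24 to 4.32 in wild type and 1.92 to 2.32 in Hox-/-. No ratio of a wild-type library fell within the range of the Hox-/- libraries of its own culture type and time.

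**Figure D3:**
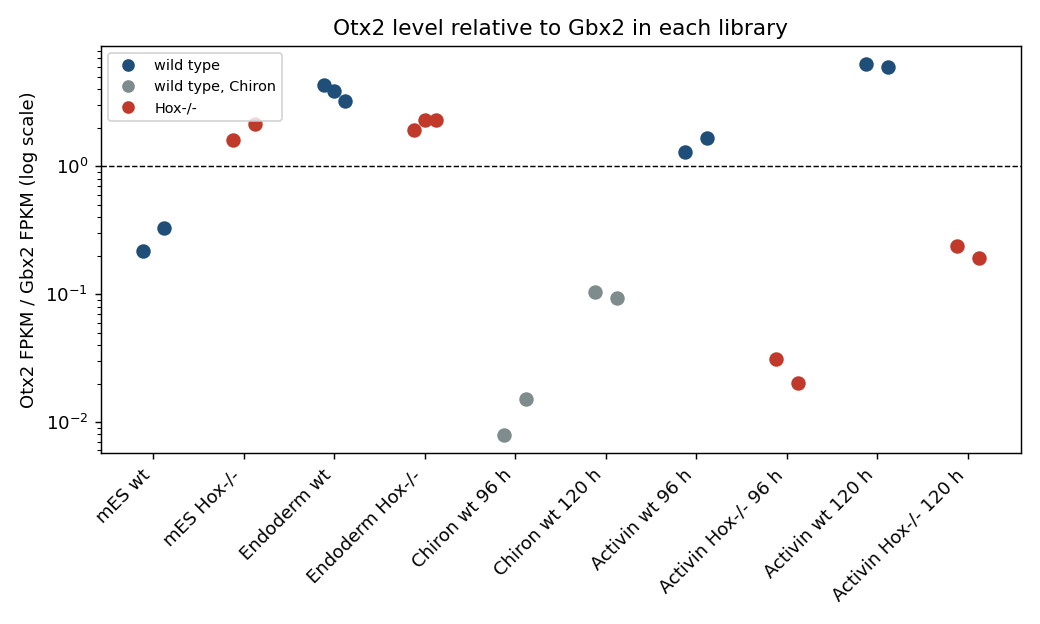
Otx2 FPKM divided by Gbx2 FPKM (vertical axis, log scale) in each library of the 10 groups (horizontal axis); points are libraries, and the dashed line marks equal FPKM. Wild-type Activin A libraries lie above the line at 1.29 to 6.26, and Hox-/- Activin A and wild-type Chiron libraries lie below it at 0.239 or less.

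Of the forebrain members, Six3 was detected above the floor only in the 4 wild-type Activin A libraries, among the 22 sequenced. Six3 (chr17:85613608-85629302, plus strand) represses Wnt genes in the anterior forebrain. It measured 0.755 and 1.24 CPM at 96 h and 1.62 and 1.76 CPM at 120 h in wild type, against 0 and 0 CPM at 96 h and 0.0862 and 0 CPM at 120 h in Hox-/-. The Hox-/- means were at least 4.97-fold lower at 96 h (edgeR adjusted p = 2.01e-07) and at least 6.02-fold lower at 120 h (edgeR adjusted p = 2.25e-06), with the floor of 3 counts per library as the bound. Six3os1, which overlaps Six3 on the opposite strand over 4791 bases, was also lower in Hox-/- at both times. At 120 h it held 8.32 and 6.59 CPM in wild type, above Six3, and 0.172 and 0.187 CPM in Hox-/-. At 96 h its wild-type mean was 0.707 CPM, below the 0.998 CPM of Six3, and its Hox-/- mean was 0.104 CPM. From 96 h to 120 h in wild type Six3os1 rose 10.5-fold (edgeR adjusted p = 5.76e-16). Six3 was not called there (0.66 on the log2 scale, edgeR adjusted p = 0.104). Reads in the shared bases are uncertain here too, and 6 further short or antisense annotations lie within Six3.

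Lhx2, a LIM-homeobox gene of forebrain and eye, spread over 0.419 to 2.78 CPM and was not highest where Otx2 was. It was highest in wild-type Chiron gastruloids at 96 h, at 2.77 and 2.78 CPM. In Activin A gastruloids at 120 h it measured 1.08 and 0.768 CPM in wild type and 1.81 and 1.59 CPM in Hox-/-, a log2 fold change of 0.98 ± 0.42 (edgeR adjusted p = 0.0477). That call was lost when any of the 8 libraries of the fit was left out: the adjusted p was then 0.0744 and 0.266 without wild-type replicates 1 and 2 of 120 h, 0.198 and 0.0872 without Hox-/- replicates 1 and 2 of 120 h, and 0.0508 to 0.0623 without any 1 library of 96 h; DESeq2 gave 0.255, scaling by total counts 0.0814 and thinning 0.0667. The difference was 0.06 ± 0.38 at 96 h, -0.35 ± 0.25 in endoderm cultures and -0.85 ± 0.49 in mES cells, none of them called (edgeR adjusted p 0.922, 0.276 and 0.217).

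Otx1, the paralogue of Otx2, did not share its pattern. Its libraries ran from 0 to 1.21 CPM, highest in wild-type gastruloids of 96 h, at 1.12 and 1.21 CPM under Chiron and 0.933 and 1.12 CPM under Activin A. The Hox-/- libraries of 96 h were at 1.03 and 0.268 CPM, overlapping the wild type (log2 fold change -0.49 ± 0.43, edgeR adjusted p = 0.385). Without Hox-/- replicate 1 the adjusted p was 0.0368 at a log2 fold change of -1.87, and without Hox-/- replicate 2 the log2 fold change was 0.04 (adjusted p = 0.952). Otx1 was not tested in mES cells or endoderm cultures, where it measured 0.227 to 1.09 CPM.

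Among the boundary members, En2 and Pax2 differed between genotypes and En1 stayed too low to compare. En2, which acts in midbrain and anterior cerebellum, was 4.22 and 4.22 CPM in wild type and 5.05 and 6.82 CPM in Hox-/- at 96 h, and 3.68 and 4.39 CPM against 1.38 and 1.87 CPM at 120 h. The groups did not overlap at either time, and the sign of the difference turned, from 0.51 ± 0.17 at 96 h (edgeR adjusted p = 0.0108) to -1.20 ± 0.30 at 120 h (adjusted p = 6.34e-04). The test of that change gave -1.72 ± 0.34 (edgeR adjusted p = 5.26e-05). Of these, the difference at 96 h was the weak part: the adjusted p was 0.221 without Hox-/- replicate 2 and 0.0504 without wild-type replicate 2 of 96 h, 0.23 by DESeq2, and 0.143 and 0.193 by limma on log2(FPKM + 1) and log2(FPKM + 0.1). Its highest libraries were the wild-type mES cells, at 7.57 and 7.15 CPM, against 5.45 and 4.20 CPM in Hox-/- mES cells (-0.60 ± 0.18, adjusted p = 0.011). That call was lost without wild-type replicate 1 (adjusted p = 0.105), without Hox-/- replicate 2 (0.106), by DESeq2 (0.274) and by limma with either pseudocount (0.187 and 0.199). In endoderm cultures the genotypes overlapped, at 0.973 to 1.38 CPM and 0.800 to 1.53 CPM.

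Pax2, a paired-box gene of the midbrain-hindbrain boundary and of kidney precursors, was lower in Hox-/- gastruloids and higher in Hox-/- endoderm cultures. At 120 h it measured 4.43 and 4.83 CPM in wild type and 2.76 and 2.43 CPM in Hox-/- (-0.72 ± 0.26, edgeR adjusted p = 0.0179). That call was lost without wild-type replicate 2 (adjusted p = 0.107), Hox-/- replicate 1 (0.0509) or Hox-/- replicate 2 (0.111) of 120 h, by DESeq2 (0.229) and by limma on log2(FPKM + 0.1) (0.0881). At 96 h the values were 0.800 and 0.736 CPM against 0.234 and 0.201 CPM (-1.71 ± 0.50, edgeR adjusted p = 0.00483). The call at 96 h was lost with all libraries thinned to the smallest (-1.61, adjusted p = 0.149) and with limma on log2(FPKM + 1) (-0.13, adjusted p = 0.387) and on log2(FPKM + 0.1) (-0.70, adjusted p = 0.112). Endoderm cultures held 0.649, 0.594 and 0.948 CPM in wild type and 3.12, 2.09 and 2.2 CPM in Hox-/-, 3.39-fold more (1.77 ± 0.30, adjusted p = 2.45e-04, n = 3 per group). En1, the partner of En2, was at 1.08 CPM or less in all libraries and was tested only in the endoderm fits, where the genotypes overlapped (0.05 ± 0.39, edgeR adjusted p = 0.93).

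Egr2 (also known as Krox20), the gene of rhombomeres 3 and 5, was highest in wild-type Activin A gastruloids at 96 h, at 1.51 and 1.36 CPM. The Hox-/- libraries held 0.468 and 0.334 CPM there, a log2 fold change of -1.72 ± 0.41 (edgeR adjusted p = 6.35e-04), which DESeq2 did not call (adjusted p = 0.129). In endoderm cultures Egr2 measured 0.649, 1.12 and 0.948 CPM in wild type and 0.455, 0.431 and 0.441 CPM in Hox-/- (-1.03 ± 0.35, adjusted p = 0.0277). That call was lost without wild-type replicate 2 (adjusted p = 0.127), wild-type replicate 3 (0.0711), and Hox-/- replicate 1 (0.0623), 2 (0.0713) or 3 (0.065), without the filter on low counts (0.059) and by DESeq2 (0.198). By 120 h in gastruloids it was at 0.540 and 0.110 CPM in wild type and 0.259 and 0 CPM in Hox-/-, which was not called.

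The treatment comparison asks what Activin A gastruloids of wild type held in comparison with Chiron gastruloids. It uses the same 4 wild-type Activin A libraries as the genotype comparison, so these differences are not independent and are given side by side only. At 96 h 6 of 8 members were called, against 61.6% of all genes tested, and at 120 h 5 of 8 against 41.9%. Otx2 was 1.17 and 2.26 CPM under Chiron at 96 h and 3.35 and 2.86 CPM at 120 h. Its Activin A levels were 60.6-fold higher at 96 h (5.79 ± 0.14 on the log2 scale, edgeR adjusted p = 7.18e-21) and 35.1-fold higher at 120 h (5.06 ± 0.16, adjusted p = 8.65e-18). Without Chiron replicate 2 of 96 h the Otx2 value at 96 h was 6.43 and still called. Gbx2 was 140 and 150 CPM under Chiron at 96 h and 31.8 and 36.6 CPM at 120 h, above the wild-type Activin A libraries at both times (-0.98 ± 0.06 and -0.80 ± 0.10 for Activin A over Chiron, adjusted p = 1.09e-12 and 1.06e-06). Six3 was at least 6.83-fold and at least 5.31-fold higher under Activin A. A change of the treatment effect between the times was called for 3 of 8 members, Lhx2, En2 and Pax2, and 39.6% of all genes. Pax2 reversed: Chiron libraries held 3.70 and 3.68 CPM at 96 h, above Activin A, and 1.09 and 0.848 CPM at 120 h, below it. Lhx2 was 3.61-fold lower under Activin A at 96 h (edgeR adjusted p = 7.78e-07) and not called at 120 h, whereas En2, at 3.21 and 3.16 CPM and then 0.754 and 1.38 CPM under Chiron, was called only at 120 h (3.78-fold higher under Activin A, adjusted p = 4.25e-05). Egr2 was 8.60-fold higher under Activin A at 96 h (adjusted p = 3.32e-06).

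Over time, Gbx2 and Otx1 were called lower and Pax2 changed in every gastruloid type. From 96 h to 120 h 4 of 8 members were called in wild-type Activin A gastruloids, 6 of 8 in Hox-/- and 6 of 8 in Chiron gastruloids, against 74.9%, 72.4% and 61.7% of all genes, so these counts are not a result about the members. Time went with depth in these libraries. Gbx2 was 3.80-fold lower at 120 h in wild-type Activin A, 5.73-fold lower in Hox-/- and 4.24-fold lower in Chiron gastruloids (edgeR adjusted p = 2.31e-28, 1.44e-38 and 1.94e-17). Pax2 was 6.03-fold and 11.9-fold higher at 120 h in the Activin A groups and 3.81-fold lower under Chiron. Otx1 changed by -1.71, -2.90 and -3.10 on the log2 scale in wild-type Activin A, Hox-/- and Chiron gastruloids. At 120 h it was at the floor in the Hox-/- and Chiron groups, so their fitted values depend on the prior count. With 1 library left out the values ran from -7.1 to -0.72, -6.59 to -1.51 and -3.8 to -2.55 in the same order. Otx1 held 6 counts or fewer in each library of 120 h, and DESeq2 did not call it in the Activin A groups (adjusted p 0.162 in wild type and 0.0669 in Hox-/-). The Otx2 libraries of the 2 times overlapped in wild-type Activin A gastruloids, with a log2 difference of -0.01 ± 0.06 (adjusted p = 0.914) that was 0.07 when scaled by total counts alone. In Hox-/- gastruloids it was 1.41-fold higher at 120 h (0.44 ± 0.18, adjusted p = 0.0229), a call lost without Hox-/- replicate 2 of 96 h (adjusted p = 0.23) or Hox-/- replicate 1 of 120 h (0.206) and by limma (0.0868 and 0.0813). En2 was 3.65-fold lower at 120 h in Hox-/- and 2.99-fold lower under Chiron (adjusted p = 4.09e-09 and 2.2e-05), and -0.14 ± 0.21 on the log2 scale in wild-type Activin A gastruloids (adjusted p = 0.552). Under Chiron, Lhx2 was 6.58-fold lower at 120 h and Otx2 was higher by 0.70 on the log2 scale (edgeR adjusted p = 0.046). That Otx2 call was lost by DESeq2 (adjusted p = 0.0785) and by limma with either pseudocount (0.0587 and 0.0548). With edgeR it was lost after thinning (0.155) and with at least 10 counts in every library (0.0561). With 1 library left out the Otx2 value ran from 0.40 to 1.34.

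**Figure D4:**
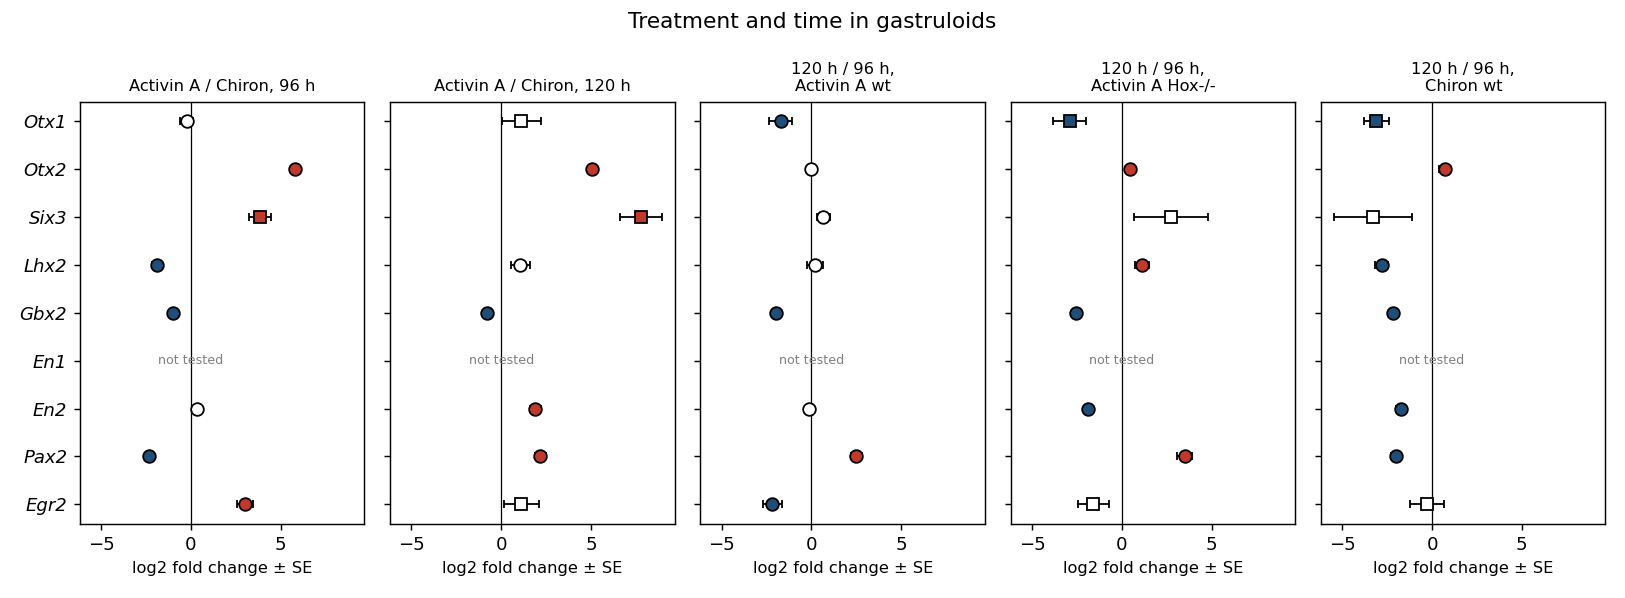
Log2 fold change (horizontal axis) of Activin A over Chiron wild-type gastruloids at 96 h and 120 h and of 120 h over 96 h in 3 gastruloid types, for each gene, with bars of 1 SE; colours and squares mark calls and groups at the floor, red higher, blue lower, white not called. Otx2 lies at 5.79 and 5.06 in the treatment panels and near 0 in the wild-type Activin A time panel, where Gbx2 lies lower at 120 h.

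Endoderm differentiation is a comparison of cultures fitted jointly over the mES and endoderm tables. It called 7 of 8 members in wild type and 6 of 8 in Hox-/-, against 79.9% and 80.6% of all genes. Otx2 was 6.85-fold higher in endoderm cultures than in mES cells of wild type (2.66 ± 0.12, edgeR adjusted p = 6.04e-14). In Hox-/- cells Otx2 stood at 13.6 and 15.5 CPM in mES cells and 13.4 to 15.4 CPM in endoderm cultures (-0.07 ± 0.12, edgeR adjusted p = 0.575, and 0.01 when scaled by total counts alone). Gbx2 and En2 were lower in endoderm cultures of both genotypes, Gbx2 by 2.04-fold in wild type and 1.28-fold in Hox-/-; the Gbx2 difference in Hox-/- was not called without mES replicate 1 (adjusted p = 0.0776). En1, Pax2 and Egr2 rose from the floor in both.

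Other genes of each region, from 3 lists of 12, did not follow 1 direction. Of 12 other forebrain genes 7 were tested in gastruloids and all 7 were called at 120 h, against 50.4% of all genes, among them Pax6, Hesx1 and Rax lower and Sp8, Lhx5 and Emx2 higher in Hox-/-. Their median log2 fold change was -2.37, beside -0.02 over all genes tested. Pax6, a gene of forebrain, eye and spinal cord, was 10.6 ± 1.42 CPM in wild type, against 0.539 ± 0.0310 CPM in Hox-/- (mean ± SD, n = 2; edgeR adjusted p = 1.66e-15), and Hesx1, a gene of anterior forebrain and pituitary, was at least 18.6-fold lower in Hox-/-. Sp8, which acts in telencephalon and in the tail bud, was 20.8 ± 3.54 CPM against 28.2 ± 1.62 CPM (adjusted p = 3.86e-05). At 96 h 3 of the 7 were called, against 38.9% of all genes, among them Emx2 lower and Sp8 higher, with a median of 0.13 over the 7 tested, beside 0.03 over all genes; with the genes that had a group at the floor set to their bounds the median was 0.

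Of 12 other midbrain and boundary genes, 10 were tested in Activin A gastruloids and 7 were called at 120 h, against 50.4% of all genes. Dmbx1, Irx3, Spry1, Irx2, Cnpy1 and Wnt1 were lower in Hox-/- and Fgf17 higher, and the median log2 fold change was -0.84. Dmbx1, a midbrain homeobox gene, fell from 9.27 ± 1.95 to 0.719 ± 0.0414 CPM (mean ± SD, n = 2, edgeR adjusted p = 3.23e-14). Fgf17, an FGF of the boundary and of the tail bud, was 12 ± 1.25 CPM in wild type, against 34.5 ± 0.273 CPM in Hox-/- (edgeR adjusted p = 1.15e-16). At 96 h 5 of 10 were called, against 38.9% of all genes, Cnpy1 and Fgf17 higher and Irx3, Lmx1b and Spry1 lower, with a median of 0.00. Of 12 other hindbrain genes 8 were tested: 4 were called at 96 h and 8 at 120 h, against 38.9% and 50.4% of all genes, and at 120 h Epha4, Fgf3, Meis1 and Meis2 were higher in Hox-/- and Irx1 and Nkx6-2 were among those lower. Epha4, an ephrin receptor of rhombomeres and many other tissues, was at 48.1 ± 1.38 CPM in wild type, against 136 ± 3.38 CPM in Hox-/- (mean ± SD, n = 2, edgeR adjusted p = 1.84e-28). In endoderm cultures 1 of 3 tested forebrain genes, 7 of 9 midbrain and boundary genes and 6 of 7 hindbrain genes were called, against 46.2% of all genes, and in mES cells, where 23.2% of all genes were called, 1 of 7 of the midbrain and boundary list and 2 of 4 of the hindbrain list.

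Gene lists of other tissues that express the members were summed in the same libraries. A list of 9 anterior endoderm and mesendoderm genes, where Otx2 is also active, summed to 843 and 923 CPM in wild-type Activin A gastruloids at 96 h against 96.6 and 113 CPM in Hox-/-, and to 558 and 576 CPM against 215 and 218 CPM at 120 h. All 9 were called lower in Hox-/- at 96 h, and 8 of 9 were at 120 h, where 38.9% and 50.4% of all genes were called in either direction; none was at the floor in any of these groups. Cer1, a secreted Nodal and Wnt antagonist of anterior endoderm, was 147 ± 14.5 CPM in wild type, against 1.22 ± 0.122 CPM in Hox-/- at 96 h (edgeR adjusted p = 2.37e-44). In endoderm cultures the list summed to 360 to 386 CPM against 218 to 245 CPM, with 8 genes lower and Dkk1 higher where 46.2% of all genes were called, and in Chiron gastruloids to 179 and 226 CPM at 96 h and 67.1 and 70.0 CPM at 120 h. In mES cells, where Otx2 was higher in Hox-/-, it summed to 23.9 and 26.8 CPM against 18.5 and 22.0 CPM, with 3 and 4 of its genes at the floor. The part of these tissues in the Otx2 differences was not tested.

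**Figure D5:**
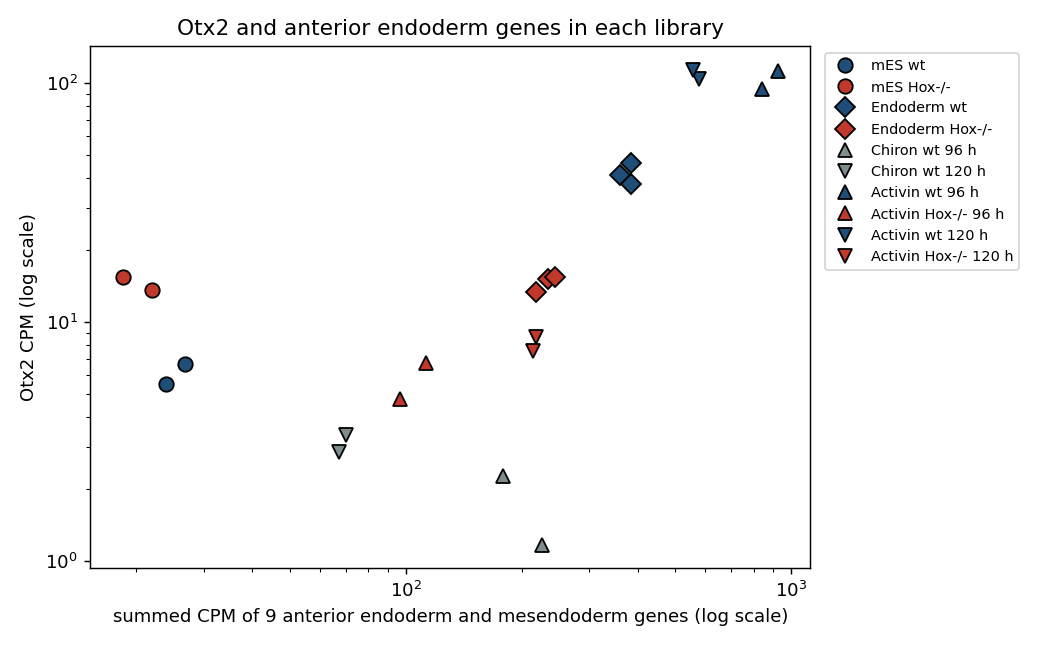
Otx2 CPM (vertical axis, log scale) against the summed CPM of 9 anterior endoderm and mesendoderm genes (horizontal axis, log scale); each symbol is a library, with shape and colour for its group. Wild-type Activin A libraries are highest on both axes, at 558 to 923 and 94.5 to 114 CPM, and Hox-/- mES libraries hold more Otx2 than wild-type mES libraries at 18.5 to 22.0 summed CPM.

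Further lists were read in the same way, against the same shares of all genes. The lists share some genes, so their sums are not separate readouts. Lhx1 is in the anterior endoderm and intermediate mesoderm lists, and Fgf17 in the midbrain and caudal progenitor lists. Emx2 and Pax8 of the intermediate mesoderm list are also in the forebrain and midbrain lists. Caudal progenitor genes, where Gbx2 is also active, summed to 2826 to 2965 CPM in wild type and 4011 to 4100 CPM in Hox-/- at 96 h, with 7 of 8 higher, and to 620 to 624 against 662 to 664 CPM at 120 h, with 6 of 8 higher. They were also higher in Hox-/- in endoderm cultures, at 401 to 422 against 612 to 661 CPM with 7 of 8 higher, where Gbx2 was lower. The 8 pluripotent and epiblast genes summed to 1542 to 1546 against 1183 to 1205 CPM at 96 h and to 242 to 258 against 159 to 161 CPM at 120 h, with 6 and 5 of 8 lower, and in endoderm cultures to 722 to 776 against 257 to 276 CPM, with 7 of 8 lower. Neural progenitor genes summed to 210 to 218 against 279 to 280 CPM at 96 h, with 5 of 8 higher in Hox-/- (Sox1, Sox2, Sox3, Nes and Ncam1) and Olig3 lower. At 120 h they summed to 183 to 193 against 176 to 181 CPM, with Sox1, Sox2, Sox3 and Olig3 lower and Nes and Ncam1 higher. Intermediate mesoderm genes, which share a tissue with Pax2, summed to 352 to 364 against 96.8 to 101 CPM at 96 h and 531 to 538 against 500 to 501 CPM at 120 h. At 96 h Lhx1, Sall1, Ret and Emx2 were lower in Hox-/- and Wt1 higher. At 120 h Lhx1, Gata3 and Ret were lower and Osr1, Sall1, Emx2 and Wt1 higher. In endoderm cultures, where Pax2 was higher in Hox-/-, the list summed to 146.5 to 157 against 112 to 125 CPM, with Ret higher and Lhx1, Wt1 and Sall1 lower. Neural crest genes lay at 96.9 to 98.6 against 104 to 110 CPM and 93.8 to 94.3 against 98.1 to 101 CPM, and somite genes at 12.6 to 14.0 against 5.48 to 5.52 CPM and 399 to 403 against 473 to 483 CPM. Their part in the member differences was not tested.

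Genes whose group means followed a member most closely were listed by Pearson's r of log2(CPM + 1) over the 10 group means, among 13272 genes; the points share libraries, depth and culture type, and r is a description. For Otx2 they were Cfc1 (r = 0.905), Ovol2 (0.905) and Tulp1 (0.895). Cfc1, a co-receptor for Nodal ligands, stood at 26.7 ± 2.84 CPM in Activin A gastruloids of wild type at 96 h, against 0.795 ± 0.463 CPM in those of Hox-/- (mean ± SD, n = 2), but at 0.0664 ± 0.0939 and 0.201 ± 0.0726 CPM in wild-type and Hox-/- mES cells. For Gbx2 they were Tsn (0.963), Acsl6 (0.950) and Akirin2 (0.949). For Six3 they were Gm45623 (0.962), Kcnk16 (0.955) and Noto (0.953), the last a homeobox gene of the notochord, at 14.5 ± 1.38 CPM in wild-type Activin A gastruloids and 0 CPM in both Hox-/- libraries at 120 h. For Pax2 they were Ret (0.957), Crabp1 (0.928) and Ighmbp2 (0.923). Ret, the GDNF receptor of kidney and enteric nervous system, reached 32.7 ± 0.794 CPM in wild-type Activin A gastruloids at 120 h. The leading genes were Slc30a1 for En2 (0.948), Adipor1 for Egr2 (0.950), Alg14 for Otx1 (0.920) and Pdlim5 for Lhx2 (0.866).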

How the data were processed

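Poly(A) RNA was sequenced from stranded libraries, per the labels. The submitters' processing notes name cutadapt 1.16, STAR, Cufflinks 2.2.1 and the mm10 build, without saying which tool made which table. The tables deposited by the authors hold raw counts per Ensembl gene and FPKM per gene and library. Whether counting used strand is not given in the sources used here. Besides Gbx2, Otx2 and Six3, opposite-strand genes overlap Pax2 (Gm20395 over 10751 bases and 1700039E22Rik over 7446), Lhx2 (Gm13584 over 4401 and Gm27197 over 960) and En2 (Gm43610 over 365). Mir6405 shares 124 bases with Pax2 on the same strand. The source of reads in these shared bases is uncertain too. Gene positions are 1-based and equal those of GENCODE on mm10.

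Groups were taken from the labels. Counts were tested with edgeR 4.0.16 (R 4.3.3; filterByExpr, TMM, 1 coefficient per group, quasi-likelihood, Benjamini-Hochberg over all genes), called at adjusted p under 0.05. Each gastruloid table was fitted over its 4 groups, mES and endoderm separately and, for differentiation, jointly. SE was derived from edgeR's output, as the absolute log2 fold change divided by the square root of the quasi-likelihood F statistic. The statistics were tested on simulated data. Named genes are the members, the genes overlapping them, the 3 genes most like each member by group means, and up to 2 called genes per list and direction; further list genes are named without values, and some list genes are not reported here. Replicate numbers are shared between groups. The deviations of same-numbered libraries from their group mean correlated at -0.142 to 0.215. Where both groups hold 2 libraries, the 2 pairs give the same value by construction, so the second pair adds nothing. Both pairs lay above 0.1 only for differentiation in Hox-/- (0.215 and 0.202), and the endoderm genotypes, with 3 pairs, spanned -0.142 to 0.151. The numbers were therefore not taken as pairs. The alternatives were RLE factors, total counts, tests without a filter, a minimum of 10 counts in each library, DESeq2 1.42.0, limma 3.58.1 on log2(FPKM + 1) and log2(FPKM + 0.1) with FPKM of at least 1, a replicate block, thinning to the smallest library, fits on the groups compared, and each library left out. The members and lists were chosen with earlier results of these data known.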

Additional observations from a re-analysis of the deposited data

Results flagged for a closer look

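The following 7 results were picked out because the effect of a contrast differed between conditions in a direct edgeR test of that difference. For Gbx2 the genotype difference in Activin A gastruloids changed by -0.53 on the log2 scale between 96 h and 120 h, and for En2 it changed by -1.72. Between mES cells and endoderm cultures, the genotype difference changed by -2.74 for Otx2, which turned from higher to lower in Hox-/-, and by 0.71 for Gbx2, which was lower in Hox-/- in both. The difference of Activin A from Chiron changed between 96 h and 120 h by 2.98 for Lhx2 (adjusted p = 3.71e-04), 1.56 for En2 (adjusted p = 0.00185) and 4.50 for Pax2 (adjusted p = 1.9e-09). The En2 change was not called by limma, at 0.44 on log2(FPKM + 1) (adjusted p = 0.0618) and 1.19 on log2(FPKM + 0.1) (adjusted p = 0.051). These tests called 2 of 8 members in the genotype by time test, 2 of 8 in the genotype by differentiation test and 3 of 8 in the treatment by time test, beside 38.9%, 24.1% and 39.6% of all genes tested.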

How the results depend on the processing

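The genotype and treatment calls of Otx2 and Gbx2 kept their direction and stayed called under each alternative that tested them. Apart from leaving out a library, their genotype log2 fold changes were -4.18 to -3.81 and 1.57 to 1.64 at 96 h, -3.75 to -3.39 and 0.98 to 1.14 at 120 h, -1.53 to -1.42 and -0.72 to -0.60 in endoderm cultures, and 1.08 to 1.29 and -1.45 to -1.28 in mES cells. With 1 library left out they were -4.40 to -3.90 and 1.55 to 1.69, -3.73 to -3.54 and 1.02 to 1.17, -1.57 to -1.44 and -0.73 to -0.66, and 1.11 to 1.38 and -1.51 to -1.26 in the same order. The number of members called moved by over 1.5 times under 3 settings. These test fewer members, so their counts cannot be set directly against those of the main test and are not a result about the members. With at least 10 counts in every library it was 2 in endoderm cultures, 3 for genotype at 96 h and 3 at 120 h, 2 and 2 for treatment, 1, 3 and 1 for time in wild-type Activin A, Hox-/- and Chiron gastruloids, 3 and 2 for differentiation, and 0 for treatment by time. With limma on log2(FPKM + 1) it was 2 in endoderm cultures, 2 for genotype at 96 h, 3 for treatment at 96 h, 2, 3 and 3 for time, and 1 for treatment by time. With limma on log2(FPKM + 0.1) it was 2, 2, 3, 2, 3, 3 and 1 for these, and 3 for genotype at 120 h. Limma was not run across the mES and endoderm tables, whose FPKM were set separately.

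With a library left out, signs turned in differences that were not called, over -0.21 to 0.40 (En1) and -0.09 to 0.32 (En2) for genotype in endoderm cultures, -1.87 to 0.045 (Otx1) and -0.29 to 0.27 (Lhx2) at 96 h, and -5.37 to 3.71 (Otx1) and -5.36 to 0.39 (Egr2) at 120 h. The same held for treatment at 120 h over -4.38 to 2.13 (Otx1) and -0.38 to 1.84 (Egr2), for time over -0.13 to 0.12 (Otx2) and -0.073 to 0.43 (Lhx2) in wild-type Activin A and -1 to 0.25 (Egr2) in Chiron gastruloids, and for differentiation in Hox-/- over -0.18 to 0.021 (Otx2). Otx2 over time in wild-type Activin A gastruloids was 0.068 with total counts and 0.002 after thinning; Otx2 over differentiation in Hox-/- was 0.01 with total counts. Otx1 over differentiation in Hox-/- was -0.091 after thinning. The cause was not tested. Total counts shifted the median of all genes by -0.11 for genotype at 120 h, 0.10 for time under Chiron and 0.12 for differentiation in wild type.

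With the replicate number as a block, although the numbers were not taken as pairs, the number of members called was 3, 4, 6 and 5 for genotype in mES cells, endoderm cultures and gastruloids of 96 h and 120 h; Lhx2 at 120 h was at adjusted p = 0.0501, the Otx2 tests of genotype by time and treatment by time were at 0.0329 and 0.0243, and Otx1 over differentiation in Hox-/- was -0.012. Over all genes, DESeq2 called 954 in mES cells and 3195 at 96 h, where edgeR called 3168 and 6546. Limma called 387 and 372 in mES cells, 3048 and 2787 at 96 h, and 7040 and 6670 for treatment at 96 h against 10655 by edgeR; for genotype by time 4264 with the smaller pseudocount against 6544. Counts limit Six3, Otx1, En1 and Egr2 most.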
